A study of Sus scrofa with 24 samples.

Results

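The calgranulins are the genes S100A8, S100A9 and S100A12, and each was measured by 1 probe on the array, so that 3 of the 5331 named genes and 3 of the 43603 non-control probes of the array are described here. A probe was taken when its gene name in the files, or the RefSeq symbol of its accession, was one of these genes. The genes were chosen by their measured difference between RFIneg and RFIpl in these same arrays, so that difference is a description and carries no test. Whole subcutaneous fat was sampled when pigs weighed 115 kg, and its total RNA was labelled with Cy3 and hybridised to 1 array per pig, with 8 pigs per group. RFIneg pigs came from the line with low residual feed intake and ate ad libitum. RFIpl pigs came from the line with high residual feed intake and also ate ad libitum, and RFIplR pigs came from the high line but were held to the feeding level of the RFIneg pigs. Residual feed intake measures how far a pig's intake departs from the amount predicted for its growth and upkeep, so that a low value marks an efficient animal. RFIneg set against RFIpl contrasts the lines under free feeding, RFIneg against RFIplR contrasts them at a shared feeding level, and RFIplR against RFIpl contrasts feeding levels within the high line.

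S100 proteins are small calcium-binding proteins with paired EF-hand motifs. S100A8 and S100A9 are stored in large amounts in the cytoplasm of neutrophils and monocytes, where they form the heterodimer calprotectin, which binds zinc and manganese and withholds them from microbes. S100A12 is made mainly by neutrophils, and all of them act outside the cell as danger signals through TLR4 and the receptor AGER. They are used as blood and tissue markers of inflammation, and stressed keratinocytes of the skin make them too. In adipose tissue they are usually read in connection with infiltrating myeloid cells.

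The probe sequences are shown because all values below rest on a single probe per gene in a family of related genes. Each is 60 bases long with a GC content of 45.0%, and capitals mark the longest word that the probe shares with any other probe on the array.
S100A8: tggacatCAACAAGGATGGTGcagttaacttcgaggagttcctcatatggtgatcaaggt
S100A9: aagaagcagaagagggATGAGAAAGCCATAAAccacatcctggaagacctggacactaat
S100A12: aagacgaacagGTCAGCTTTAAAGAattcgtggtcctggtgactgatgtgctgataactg
The shared word was 14 bases for S100A8, 16 for S100A9 and 14 for S100A12, and each was found in 1 other probe. No other probe on the array held a word of 20 bases from any of them. Between the calgranulin probes themselves the longest shared word was 6 bases, so their probe sequences had little in common. In RefSeq's gene table for the Sscrofa11.1 assembly the genes are neighbours in the order S100A8, S100A12, S100A9, with S100A7 and an unnamed gene before them and PPGRP-S, of the peptidoglycan recognition proteins, after them. PPGRP-S had a probe on the array that did not pass the filter on dim probes, and S100A7 had none.

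The arrays differed in brightness. On 17 of them, 6 RFIneg, 6 RFIpl and 5 RFIplR, processed intensity had a 75th percentile of 414 to 663, and on the 7 dim ones of 69.4 to 94.4. The dim arrays were RFIneg 1 and 7, RFIpl 5 and 6, and RFIplR 2, 4 and 6. All were scanned on the same day. RFIpl 2 stood apart by skeletal muscle transcripts and RFIpl 7 and 8 by epithelial transcripts. Each level below is log2 of the processed intensity minus the 75th percentile of its own array, called relative signal, so that 0 is the level of that percentile. Levels of different probes are not comparable with each other.

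By group mean, S100A8 lay highest in RFIneg, next in RFIplR and lowest in RFIpl, and the means of RFIneg and RFIplR lay closer together than the spread within RFIplR. Its relative signal in RFIneg had a lowest value of 0.53, a median of 1.17 and a highest value of 2.45 (mean 1.24 ± 0.55, SD, n = 8). In RFIpl it ran from -3.38 through a median of -0.73 to 1.15 (mean -0.94 ± 1.30, SD, n = 8). In RFIplR it ran from -0.72 through 0.87 to 1.77 (mean 0.67 ± 0.84, SD, n = 8). The groups overlapped, and the overlap of RFIpl with RFIneg came from a single pig: RFIpl 3 at 1.15, while the next highest RFIpl array stood at -0.37 and 7 of the 8 RFIpl arrays lay below every RFIneg array. The low end was RFIpl 5, a dim array at a processed intensity of 9.04, and it was the array on which the S100A8 probe was not well above background. In processed intensity the group medians were 1179.6 in RFIneg, 330.3 in RFIpl and 1140.2 in RFIplR.

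S100A12 also had its low values in RFIpl, and RFIneg and RFIplR lay close together. Its relative signal in RFIneg ran from 1.96 through a median of 2.82 to 3.32 (mean 2.74 ± 0.40, SD, n = 8). In RFIpl it ran from -0.38 through 0.73 to 2.64 (mean 0.84 ± 0.93, SD, n = 8). In RFIplR it ran from 1.32 through 3.02 to 3.88 (mean 2.64 ± 0.96, SD, n = 8). RFIpl 3, at 2.64, was again the high array of its group, with the next at 1.29. Of the RFIpl arrays, 7 of 8 lay below every RFIneg array and 7 of 8 below every RFIplR array. The probe was well above background on all 24 arrays, with group medians of 3819, 878 and 4914 in processed intensity for RFIneg, RFIpl and RFIplR.

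S100A9, the binding partner of S100A8, had a dimmer probe. Its relative signal in RFIneg ran from -1.93 through a median of -1.47 to -1.02 (mean -1.44 ± 0.33, SD, n = 8). In RFIpl it ran from -3.21 through -2.85 to -1.80 (mean -2.63 ± 0.59, SD, n = 8). In RFIplR it ran from -3.44 through -1.14 to -0.66 (mean -1.51 ± 0.90, SD, n = 8). The order of the groups was that of S100A12, with RFIpl lowest, but the low end of the RFIplR group reached below it through RFIplR 6. The S100A9 probe was not well above background on RFIplR 4 and RFIplR 6, both dim arrays, and was well above it on the other 22. The processed intensity of RFIplR 6 was 6.85.

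**Figure D1:**
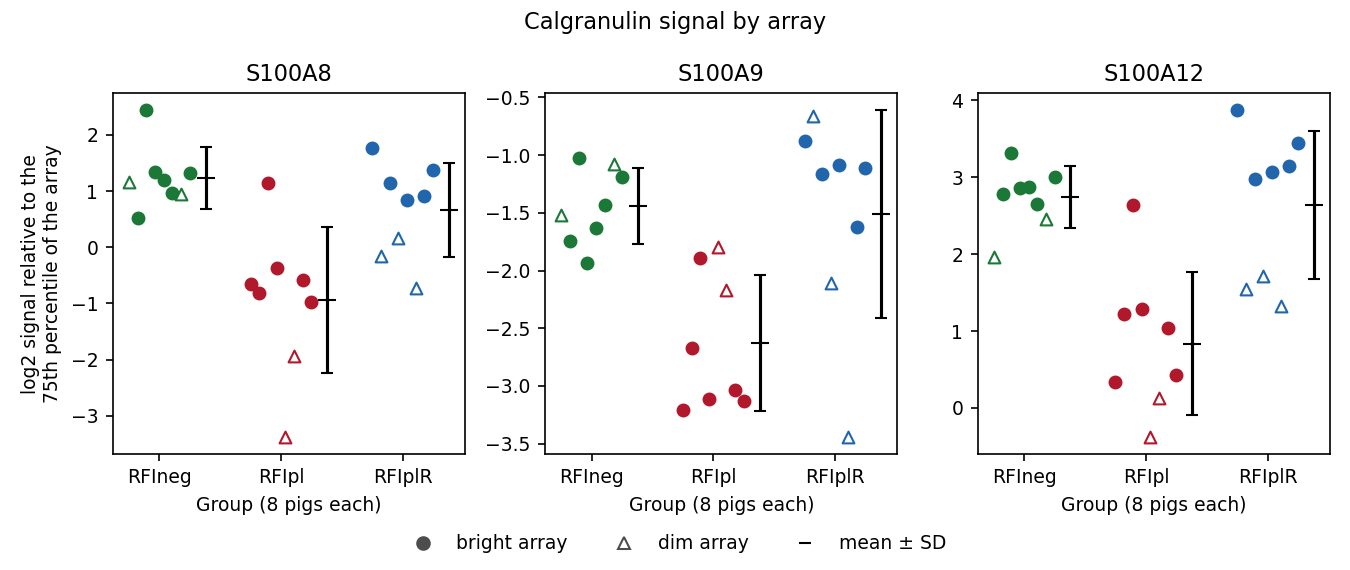
Relative signal (log2, 75th percentile of the array at 0) of S100A8, S100A9 and S100A12 on each array, by group, with bright arrays as filled circles and dim arrays as open triangles, and the group mean ± SD (n = 8) as black bars beside the points. Most RFIpl arrays lie below the RFIneg arrays in each panel, with RFIpl 3 at 1.15 for S100A8 and 2.64 for S100A12, and the low RFIplR values for S100A8 and S100A12 are the 3 dim arrays.

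S100A8 and S100A12 were lower on the dim than on the bright arrays of each group, while S100A9 was lower on the dim arrays in RFIplR and higher on them in RFIneg and RFIpl. The 3 dim RFIplR arrays had a mean S100A8 relative signal of -0.24 and the 5 bright ones 1.21 ± 0.38 (SD). For S100A12 these means were 1.53 and 3.30 ± 0.37, and for S100A9 they were -2.07 and -1.17 ± 0.28. In RFIpl the 2 dim and 6 bright arrays had means of -2.66 and -0.37 ± 0.77 for S100A8, -0.12 and 1.16 ± 0.83 for S100A12, and -1.98 and -2.84 ± 0.50 for S100A9. In RFIneg the 2 dim and 6 bright arrays had means of 1.05 and 1.30 ± 0.64 for S100A8, 2.21 and 2.92 ± 0.23 for S100A12, and -1.30 and -1.49 ± 0.34 for S100A9. Fits with the brightness class as a block and within each class are therefore given beside the results. RFIneg and RFIpl each had 2 dim and 6 bright arrays, so the block could not move the calgranulin differences between them. It also takes the same brightness shift for every group, which the means above do not show. The part of brightness in the group differences is therefore not measured by the block.

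Between the lines under free feeding, all 3 calgranulins were higher in RFIneg than in RFIpl. The log2 difference was 2.18 for S100A8 (4.53-fold, SE 0.46, 95% interval 1.23 to 3.13). It was 1.90 for S100A12 (3.73-fold, SE 0.39, interval 1.09 to 2.71) and 1.18 for S100A9 (2.27-fold, SE 0.32, interval 0.52 to 1.85). For each gene 8 of 8 RFIneg arrays lay above the RFIpl mean, but no calgranulin separated the groups without overlap, which 0.0245% of probes did. Of the 28606 probes that passed the filter, 59 (0.206%) had an adjusted p under 0.05 in the limma fit of this contrast, 0.147% being higher in RFIneg, and S100A8 and S100A12 were among them while S100A9 was not. Because this contrast chose the genes, nothing is read from that count. Among the bright arrays alone the differences were 1.67, 1.76 and 1.35 for S100A8, S100A12 and S100A9, and among the dim arrays 3.71, 2.33 and 0.69. Within the first scan day the S100A8 difference was 1.23. In bulk tissue, fewer cells of a type and less RNA per cell cannot be told apart.

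Within the high line, the calgranulins had higher mean signal under restricted than under ad libitum feeding, and the limma threshold was passed by S100A12 but not by S100A8 or S100A9. The 8 RFIpl arrays are those whose low values took part in choosing the genes, so the p-values of this contrast are not independent of that choice. Its log2 difference of RFIplR minus RFIpl was 1.80 (3.48-fold, SE 0.39, 95% interval 0.99 to 2.61, adjusted p = 0.0478 in limma), with 8 of 8 RFIplR arrays above the RFIpl mean. In this contrast 0.297% of all probes passed the threshold, 85 in all, of which 52 (0.182%) were higher in RFIplR. Groups without overlap were found for 0.154% of probes and for 0 of the 3 calgranulins. S100A8 differed by 1.61 (3.06-fold, SE 0.46, interval 0.67 to 2.56, adjusted p = 0.143 in limma) with 8 of 8 RFIplR arrays above the RFIpl mean. S100A9 differed by 1.12 (2.17-fold, SE 0.32, interval 0.45 to 1.78, adjusted p = 0.148 in limma) with 7 of 8 above it. The differences of this comparison and of the ad libitum lines rise together when RFIpl is low, since they share these arrays.

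The S100A12 call stood near the threshold and depended on the fit. It was kept when RFIneg 7, RFIpl 3, RFIplR 2 or RFIplR 6 was left out and was lost when any other of the 24 arrays was left out, with differences from 1.62 to 2.05 and adjusted p values from 0.00459 to 0.123 in limma. With brightness as a block all 3 genes passed, at 1.96 for S100A12 (adjusted p = 0.000381), 1.78 for S100A8 (adjusted p = 0.00263) and 1.12 for S100A9 (adjusted p = 0.0273) in limma. The same block raised the share of all probes past the threshold to 10.4%. Within the bright arrays the values were 2.14, 1.58 and 1.67, and within the dim arrays 1.65, 2.42 and -0.09, in the order S100A12, S100A8, S100A9. S100A9 thus had no positive difference on the dim arrays, where 2 of the 3 RFIplR arrays did not measure it well above background.

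At a shared feeding level no calgranulin passed the test between the lines. The RFIneg arrays are those whose high values took part in choosing the genes, so the differences and p-values of this contrast are not independent of that choice. RFIneg minus RFIplR was 0.57 for S100A8 (95% interval -0.38 to 1.52), 0.07 for S100A9 (interval -0.59 to 0.73) and 0.10 for S100A12 (interval -0.71 to 0.91), each with an adjusted p of 0.999 in limma. The intervals reach differences of up to 1.52, 0.73 and 0.91, so equal levels are not shown. No probe of 28606 passed the limma threshold in this contrast (0%), with 605 at an unadjusted p under 0.05. With brightness as a block the differences were 0.40, 0.06 and -0.06, and among bright arrays 0.09, -0.32 and -0.38. Among the dim arrays they were 1.28, 0.78 and 0.68. The sign for S100A9 and S100A12 thus turned with the setting.

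**Figure D2:**
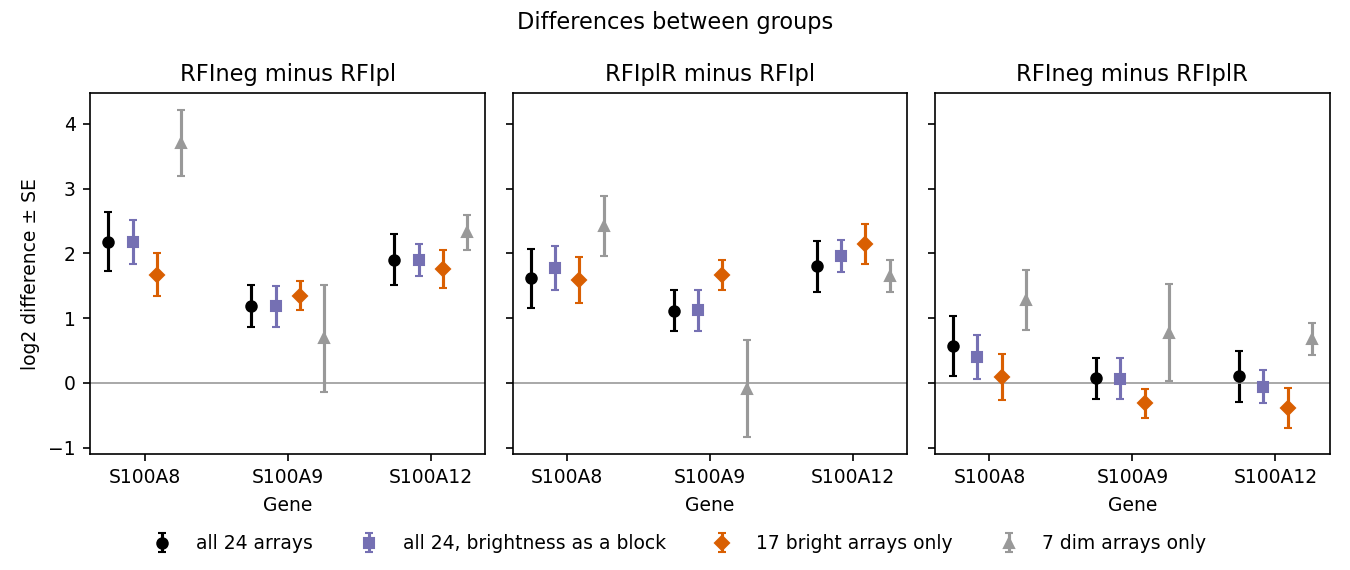
Log2 differences ± SE of the 3 calgranulins in each pair of groups, from the fit of all 24 arrays, the fit with brightness as a block, and the fits of the 17 bright and the 7 dim arrays. RFIneg and RFIpl had equal numbers of dim arrays, so the block could not move the difference between them. The differences from RFIpl lie above 0 in all fits except S100A9 in RFIplR minus RFIpl on the dim arrays (-0.09). The differences of RFIneg minus RFIplR lie above 0 for S100A8 and on both sides of 0 for S100A9 and S100A12.

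The genes varied together from pig to pig. Over the 24 arrays, which share the group differences and the scaling of each array, Pearson's r was 0.93 between S100A8 and S100A12, 0.68 between S100A9 and S100A12 and 0.57 between S100A8 and S100A9. On the 17 bright arrays the coefficients were 0.93, 0.96 and 0.91 in that order, and on the 7 dim arrays 0.97, 0.28 and 0.29. After additive effects of group and brightness class were fitted and taken off each gene, they were 0.75, 0.53 and 0.25. This fit took the same brightness shift for every group, so shifts that differ between groups remain in these values. S100A8 and S100A12 thus moved together in both array classes and also after that fit. S100A9 followed them closely on bright arrays and loosely on dim ones.

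**Figure D3:**
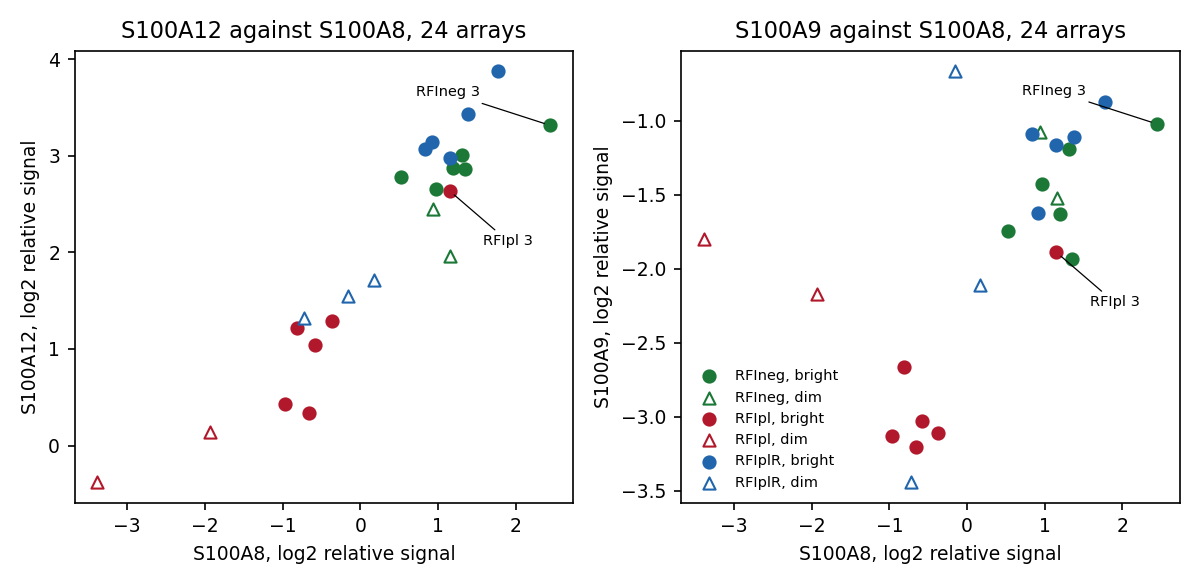
Relative signal (log2) of S100A12 and of S100A9 against that of S100A8, 1 point per array, with colour for the group and filled or open symbols for bright or dim arrays. S100A12 follows S100A8 along a band (r = 0.93), RFIpl 3 lies among the RFIneg and RFIplR arrays, and the dim RFIpl arrays have low S100A8 without low S100A9.

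No other S100 gene passed the test. Of the 17 listed, 8 were on the array and 7 passed the filter, and no gene was called in any of the 3 contrasts. Their median log2 difference was -0.03 in RFIneg minus RFIpl and -0.16 in RFIplR minus RFIpl, against -0.01 and 0.01 over all probes. S100A4, a protein of motile and fibroblast-like cells, stood at 0.15 and 0.79 in these contrasts, the latter with an adjusted p of 0.597 in limma. S100G, the intestinal vitamin D-dependent calcium-binding protein, stood at -0.68 (adjusted p = 0.655 in limma) and -0.48 (adjusted p = 0.856). S100G and S100A2 were kept by the filter through RFIpl alone, so their differences from RFIpl are partly fixed by it. S100A16, which lies on the same chromosome stretch as the calgranulins, stood at 0.26 and 0.21, and its r with S100A8 was 0.73 after the class means were taken off.

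No measured marker of neutrophils, the cells that usually carry calgranulins, passed the test in the fit without a block. Of 37 listed genes 18 were on the array and 12 were measured, 0 were called in each of the 3 contrasts, and the median difference was 0.01 in RFIneg minus RFIpl and 0.20 in RFIplR minus RFIpl. MPO, the peroxidase of neutrophil granules, was well above background on 1 of 24 arrays. PR39, a pig cathelicidin of neutrophil granules, was so on 0, and PMAP-23, another one, on 1. NCF1, a subunit of the phagocyte oxidase, was so on 12 arrays. CSF3R, CXCR1, CXCR2 and FPR1, also listed, had no named probe on the array. Low signal of single marker transcripts does not show that neutrophils were absent from the tissue. ELANE, the neutrophil elastase, was measured on all arrays and stood at -0.00 in RFIneg minus RFIpl and 0.22 in RFIplR minus RFIpl. LTF, the iron-binding lactoferrin, stood at -1.07 and -0.03. Its relative signal spread widely in RFIpl, from -4.13 to 2.84, against -3.51 to -0.92 in RFIneg and -3.24 to -0.38 in RFIplR. The genes of the list with the smallest p in RFIplR minus RFIpl were CXCR4, a chemokine receptor, at 0.52 (adjusted p = 0.399 in limma) and HP, haptoglobin, at -0.57 (adjusted p = 0.848). The summed neutrophil signal (log2) ranged from 4.03 to 4.72 in RFIneg, from 3.72 to 4.54 in RFIpl and from 4.06 to 4.72 in RFIplR.

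LCN2 and ALOX5AP had the largest positive differences of the neutrophil list in RFIneg minus RFIpl, and they were chosen after their values were seen. LCN2, the iron-siderophore binding lipocalin that adipocytes also make, stood at 1.33 in RFIneg minus RFIpl (adjusted p = 0.508 in limma) and at 0.61 in RFIplR minus RFIpl (adjusted p = 0.999). ALOX5AP, which hands arachidonic acid to 5-lipoxygenase in leukotriene synthesis, stood at 0.67 (adjusted p = 0.966 in limma) and 0.53 (adjusted p = 0.974), and with brightness as a block at 0.67 (adjusted p = 0.0106) and 0.74 (adjusted p = 0.00355). Its r with S100A12 was 0.88 over the 24 arrays with class means taken off, and 0.69 with the group means off as well. The brightness block called 6.62% of all probes in RFIneg minus RFIpl and 10.4% in RFIplR minus RFIpl.

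No monocyte or macrophage gene passed the test either. Of 28 listed, 16 were on the array and 12 were measured, 0 were called in each contrast, and the medians were -0.03 in RFIneg minus RFIpl and -0.10 in RFIplR minus RFIpl. CD14, the endotoxin co-receptor, stood at -0.32 in RFIneg minus RFIpl and -0.23 in RFIplR minus RFIpl. CD163, the haemoglobin scavenger receptor of tissue macrophages, stood at -0.47 and -0.85. LYZ, lysozyme, stood at 0.53 and 0.12, and AIF1, an actin-binding protein of macrophages, at -0.17 and -0.40. CD14, CD163 and C1QA were well above background on all 24 arrays, so these cells' transcripts were measured in the tissue. The summed signal (log2) ranged from 3.43 to 4.57 in RFIneg, from 3.46 to 4.97 in RFIpl and from 3.26 to 4.91 in RFIplR. After the class means were taken off, the median r of the measured genes with S100A12 was 0.01 in this list and 0.13 in the neutrophil list. With group means off as well, r ranged from -0.15 for FCN1 to 0.44 for CD86 in this list. In the neutrophil list it then ranged from -0.39 for LTF to 0.69 for HP. In the fit without a block 0 measured genes of the neutrophil and monocyte lists passed. With brightness as a block ALOX5AP was the gene of these lists that did. Over all probes that block called 6.62% in RFIneg minus RFIpl and 10.4% in RFIplR minus RFIpl. The calgranulins are therefore not assigned to a cell type here.

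Of the other blood and immune cells, the lists of lymphocytes (10 measured genes), mast cells (2), erythroid cells (3) and platelets (4) had 0 called genes in each contrast. Lymphocyte genes had a median difference of 0.20 in RFIneg minus RFIpl and 0.29 in RFIplR minus RFIpl. CD8A, CD2 and CCR7 of this list were kept by the filter through RFIpl alone, so these medians are partly fixed by it. With brightness as a block KIT, a stem cell factor receptor of mast cells, passed in RFIplR minus RFIpl at 1.31 (adjusted p = 0.0101 in limma). There 10.4% of all probes passed. CA1, the red cell carbonic anhydrase, passed with this block in RFIneg minus RFIpl at 0.63 (adjusted p = 0.0407 in limma), where 6.62% of all probes did.

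Epithelial transcripts reached their highest summed signal on RFIpl 7 and 8 and muscle transcripts on RFIpl 2, and no gene of either list passed the test. The keratins KRT5, KRT14, KRT10 and KRT1 were listed but had no named probe on the array, so keratinocytes are not told apart from other epithelium. The 6 measured of 23 listed keratinocyte and epithelial genes had a median difference of -1.27 in RFIneg minus RFIpl and -1.07 in RFIplR minus RFIpl, with 0 called. SFN, the epithelial 14-3-3 protein, stood at -1.95 (adjusted p = 0.583 in limma) and -1.34, DSP, desmoplakin of cell junctions, at -1.69 and -1.60, and EPCAM, an epithelial adhesion molecule, at -1.54 and -0.88. KRT8, a keratin of simple epithelia, stood at -1.26 in RFIplR minus RFIpl (adjusted p = 0.610 in limma). EPCAM and DSG1, which is also in this list, were kept by the filter on dim probes through RFIpl alone. Their differences from RFIpl, and in part the list medians, are therefore partly fixed by the filter. The summed signal (log2) of the measured list ranged from 0.49 to 5.96 in RFIpl, from -0.10 to 1.45 in RFIneg and from -0.39 to 1.25 in RFIplR. Without RFIpl 7 and 8 the list medians were -0.37 and -0.06, and the summed signal reached 2.36 in RFIpl. The 10 measured muscle genes had medians of -1.11 and -1.45, which rested on RFIpl 2. The summed muscle signal was 10.6 on that array and 3.91 to 5.53 on the other RFIpl arrays, with group medians of 4.13 in RFIneg, 4.21 in RFIpl and 4.18 in RFIplR. Without RFIpl 2 the list medians were -0.14 and -0.51. Of this list TNNT1, TNNT3 and TNNC1 were also kept through RFIpl alone. Without RFIpl 2, 7 and 8 the calgranulin differences were 2.28, 0.99 and 1.93 in RFIneg minus RFIpl for S100A8, S100A9 and S100A12. In RFIplR minus RFIpl they were 1.71, 0.93 and 1.83, with an adjusted p of 0.237 for S100A12 in limma and 0 probes called in either contrast (1379 and 1652 at an unadjusted p under 0.05).

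Adipocyte genes had mostly positive differences in both comparisons with RFIpl. Of 17 listed genes 15 were measured, and the tissue's defining markers ADIPOQ, PLIN1 and LEP were well above background on all 24 arrays. The median difference was 0.27 in RFIneg minus RFIpl and 0.24 in RFIplR minus RFIpl, 14 and 11 of 15 were positive, and 0 were called. LEP, the satiety hormone of fat cells, had the largest differences of the list, 1.36 (adjusted p = 0.567 in limma) and 1.17 (adjusted p = 0.604), which lie beside the 1.18 and 1.12 of S100A9. AQP7, the glycerol channel of adipocytes, stood at 0.79 (adjusted p = 0.134 in limma) and 0.57 (adjusted p = 0.334), and CEBPA, a factor of adipocyte and myeloid differentiation, at 0.42 in RFIplR minus RFIpl (adjusted p = 0.381). With brightness as a block 5 of 15 passed in RFIneg minus RFIpl, where 6.62% of all probes did. They were ADIPOQ (0.27), PLIN1 (0.48), CIDEC (0.76), LIPE (0.55) and AQP7. With class means taken off, the median r of the 15 genes with S100A12 was 0.45, from -0.26 for PPARG to 0.79 for ADIPOQ. LIPE, at 0.74, and AQP7, at 0.78, were next to ADIPOQ at the high end. With group means off as well, r was 0.29 for ADIPOQ, 0.55 for LIPE and 0.56 for AQP7. Summed adipocyte signal (log2) ranged from 10.43 to 10.999 in RFIneg, from 10.12 to 10.92 in RFIpl and from 10.35 to 10.93 in RFIplR. The part of adipocyte content in the calgranulin differences was not tested.

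Of 9 measured fibroblast and preadipocyte genes 0 were called, with COL1A2, a chain of type I collagen, at -0.72 in RFIneg minus RFIpl (adjusted p = 0.186 in limma) and -0.65 in RFIplR minus RFIpl (adjusted p = 0.216). Of 7 measured endothelial genes 0 were called, with PECAM1, an adhesion molecule of vessel walls, at 0.55 in RFIplR minus RFIpl (adjusted p = 0.242). Brightness as a block called 6.62% of all probes in RFIneg minus RFIpl and 10.4% in RFIplR minus RFIpl. With it COL1A2 passed in both comparisons with RFIpl (-0.72, adjusted p = 0.0273 in limma, and -0.64, adjusted p = 0.0379). DPP4, a peptidase of preadipocytes, passed in RFIneg minus RFIpl (-1.19, adjusted p = 0.0418 in limma). Of the endothelial genes VWF, a clotting glycoprotein, passed in RFIneg minus RFIpl (0.50, adjusted p = 0.0187 in limma). PECAM1 (0.50, adjusted p = 0.0196), the vessel cadherin CDH5 (0.52, adjusted p = 0.0167) and the VEGF receptor KDR (-0.74, adjusted p = 0.0496) passed in RFIplR minus RFIpl.

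No receptor or signalling gene that responds to calgranulins passed the test on all 24 arrays without a block. Of 30 listed, 23 were on the array and 22 measured, 0 were called in the 3 contrasts, and the medians were -0.01 in RFIneg minus RFIpl and -0.03 in RFIplR minus RFIpl. TLR4, the endotoxin receptor that S100A8 and S100A9 engage, stood at 0.44 and 0.41, and LY96, its co-receptor, at 0.12 and 0.27. AGER was well above background on 8 of 24 arrays and was not measured. CD36, a fatty acid transporter that binds the S100A8 and S100A9 complex, stood at 0.26 and -0.17. ANXA2, a calcium-dependent membrane protein and partner of another S100 protein, stood at 0.55 in each contrast (adjusted p = 0.557 and 0.443 in limma). With brightness as a block ANXA2 passed in each (0.55, adjusted p = 0.00606, and 0.65, adjusted p = 0.00124), and MAPK14, the p38 kinase, fell by 0.63 in RFIplR minus RFIpl (adjusted p = 0.00711). All probes passed at a share of 6.62% and 10.4% in these contrasts under the same block. The r of ANXA2 with S100A12 was 0.84 with class means off and 0.51 with group means off as well.

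The same held for genes upstream and downstream. The 18 measured of 25 inducers, transcription factors and cytokines known to raise calgranulin transcription, had medians of -0.08 and 0.13 with 0 called. CEBPB, a leucine zipper factor of myeloid genes, stood at -0.23 and -0.09, SPI1, the myeloid master factor, at 0.00 and 0.36, and KLF5, of epithelial cells, at -0.91 and -1.03. The 19 measured of 27 inflammatory target genes had medians of 0.01 and 0.00 with 0 called. Among them were CCL2, the monocyte chemokine, at -0.22 and -0.67, IL18, an inflammasome cytokine, at 0.27 and 0.06, and SAA3, an acute-phase protein, at -0.61 in RFIplR minus RFIpl (adjusted p = 0.574 in limma). SAA3 was kept by the filter through RFIpl alone, so its difference is partly fixed by it. CXCL8, the neutrophil chemokine, was well above background on 0 of 24 arrays and IL1B on 14. The 4 measured partners of the phagocyte oxidase had 0 called, and CYBA, its membrane subunit, stood at -0.37 in RFIplR minus RFIpl (adjusted p = 0.538).

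**Figure D4:**
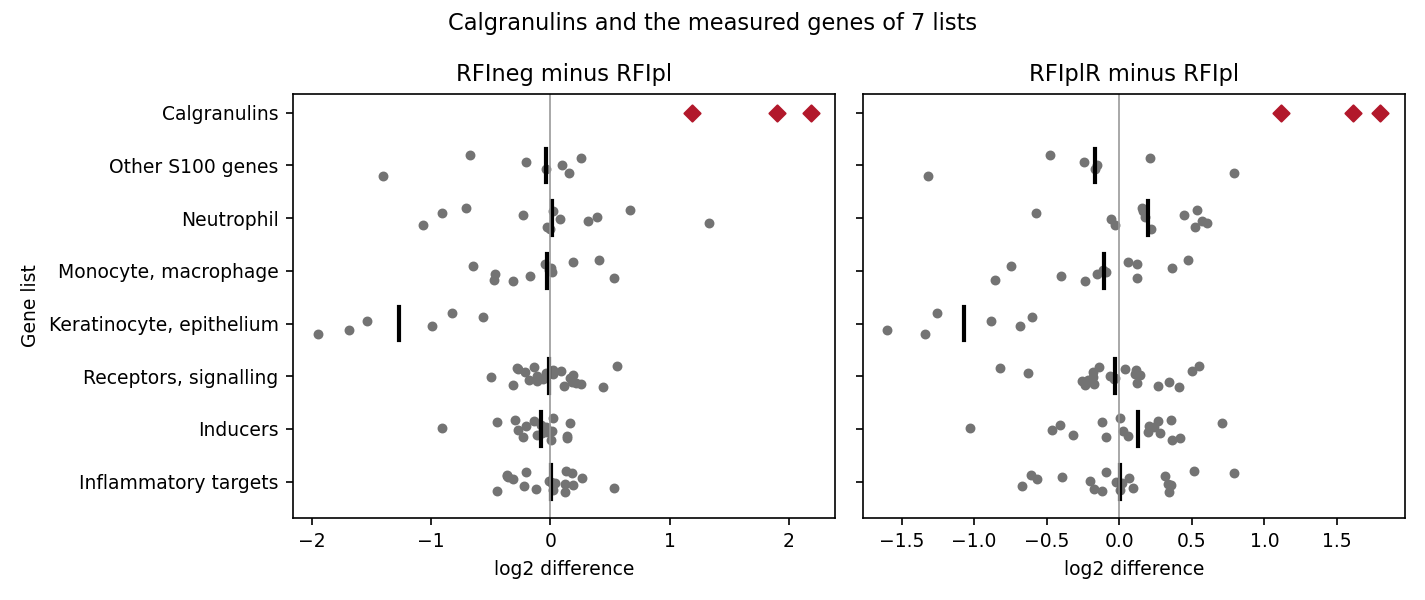
Log2 differences of the 3 calgranulins (red diamonds) and of the measured genes of 7 lists (grey points, vertical bar at the list median) in RFIneg minus RFIpl and in RFIplR minus RFIpl. The calgranulins lie between 1.12 and 2.18, and neutrophil and macrophage lists have medians from -0.10 to 0.20. The list of keratinocyte and epithelial genes has medians of -1.27 and -1.07.

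The named genes whose pattern across the 24 arrays was most like that of the calgranulins were not myeloid markers with the exception of ALOX5AP. Likeness was Pearson's r after the class means were taken off, over 4297 other named genes, where the median r was 0.06 for S100A8, 0.04 for S100A9 and 0.05 for S100A12. The 5 nearest to S100A8 were TMBIM6, a membrane protein of the endoplasmic reticulum (0.89), CTSA, a lysosomal carboxypeptidase (0.87), COMMD4 (0.86), CAT, the peroxide-removing catalase (0.86), and SNX16, a sorting nexin of endosomes (0.86). The 5 nearest to S100A12 were FAM149A (0.92), SDR16C5, a retinol dehydrogenase (0.90), STOML1 (0.89), SNX16 (0.89) and ALOX5AP (0.88). The 5 nearest to S100A9 were CEP120, a centrosomal protein (0.78), SLITRK6, a neuronal membrane protein (0.78), SMUG1, a uracil-DNA glycosylase (0.77), CTSD, the lysosomal protease cathepsin D (0.76), and SNCG, a synuclein found in fat and neurons (0.76). These genes were ranked from the arrays that hold the group differences. With group means also taken off, r of the 5 named genes with S100A8 ran from 0.41 for SNX16 to 0.74 for TMBIM6. With S100A12 it ran from 0.62 for SNX16 to 0.78 for FAM149A. With S100A9 it ran from 0.39 for CTSD to 0.84 for CEP120. SNX16 was the gene named for both S100A8 and S100A12, and its differences were 0.68 in RFIneg minus RFIpl and 0.64 in RFIplR minus RFIpl.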

How the data were processed

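Total RNA of subcutaneous fat of 24 pigs was hybridised to Agilent 1-colour arrays. Per the file headers, spot intensity in the deposited scanner files came from Feature Extraction 10.7.3.1, with background subtracted and no scaling across arrays. The deposited value table holds log2 values, which matched log2 processed intensity after centring every array at its median, and was used as an alternative. The submitters' processing notes name R 2.10.0.

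Relative signal was log2 processed intensity (floor 1) minus the 75th percentile of the array's non-control probes. Control and outlier spots were left out and spots of a probe averaged. Probes well above background on at least 6 of 8 arrays of a group and missing on at most 6 arrays were kept, 28606 in all. Some listed genes were kept through RFIpl alone, and the filter then partly fixes their differences from RFIpl. Beside those marked in the results, they include ARG1, CD86, HBE1, IL1A and PTGS2. Groups came from the labels and were compared in a single limma 3.58.1 fit (lmFit and eBayes, R 4.3.3) over 24 arrays, two-sided, with p-values adjusted by Benjamini-Hochberg across the kept probes and called below 0.05. Adjusted p-values with a block are from the same limma tools. Files were read with the R package data.table (version 1.17.8). The code was tested on simulated data. Python 3.11.15 with pandas 2.3.3 and numpy 2.4.6 served annotation, and matplotlib 3.10.9 drew the figures. No spot was saturated and no arrays were identical, and the number of arrays limits the precision.

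Symbols came from the files or from a RefSeq table of Sscrofa11.1, used for names and gene order. The calgranulins, the gene lists and the brightness, slide and scan-day alternatives were chosen with earlier results of these data known. A gene with several kept probes was given at the one with the highest mean. Named were all calgranulin probes; of each list, called genes or otherwise the 2 with the smallest p, and up to 4 defining genes of the neutrophil, macrophage, keratinocyte and receptor lists; and the 5 genes most like each calgranulin. Other genes are named because they complete a group, and these were chosen after their values were seen. Alternatives were quantile scaling, normexp correction (offset 50), no filter on dim probes, the deposited table, brightness, slide, scan day or replicate number as a block, fits within a brightness class or scan day, and each array left out. Fits with brightness and slide together and without RFIpl 2, 7 and 8, and list medians without RFIpl 2 or without RFIpl 7 and 8, were added after the data were seen. The values of 1 listed gene are not reported here.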

Additional observations from a re-analysis of the deposited data

Results flagged for a closer look

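RFIneg 3 stood apart from the other RFIneg arrays for S100A8. Its relative signal was 2.45 on the log2 scale and the next highest RFIneg array stood at 1.35, a gap of 0.572 of the group's range against Dixon's critical value of 0.526 for 8 arrays. It was a bright array, and the S100A12 and S100A9 values of the same pig, 3.32 and -1.02, were also the highest of the group without such a gap. Of 9 combinations of gene and group examined, chance flags about 1 in 20. Without RFIneg 3 the S100A8 difference of RFIneg minus RFIpl was 2.01.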

How the results depend on the processing

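The differences from RFIpl kept their sign in each of the 14 settings other than leaving out an array, with the exception of S100A9 in RFIplR minus RFIpl within the dim arrays (-0.088). In RFIneg minus RFIpl, S100A8 was 3.71 within the dim arrays and 1.23 within scan day 1, and with an array left out S100A8 ranged from 1.83 to 2.48, S100A9 from 1.10 to 1.30 and S100A12 from 1.73 to 2.16. In RFIneg minus RFIplR no setting gave a call. S100A9 there turned to -0.41 with normexp, -0.039 when slide was the block, -0.32 on the bright arrays, -0.29 within scan day 1 and -0.046 with brightness and slide as blocks. S100A12 turned to -0.059 when brightness was the block, -0.21 when slide was, -0.091 when scan day was, -0.38 within the bright arrays, -0.23 within scan day 1 and -0.12 with brightness and slide. Leaving out an array gave 0.37 to 0.73 for S100A8, -0.21 to 0.19 for S100A9 and -0.085 to 0.28 for S100A12. The turns below 0 came from leaving out RFIplR 6 (S100A9 at -0.21, S100A12 at -0.085) and RFIplR 4 or 2.

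In RFIplR minus RFIpl, S100A8 passed when brightness was the block (1.78), on the bright arrays alone (1.58) and with brightness and slide (2.05). Of all probes 10.4%, 3.33% and 5.92% passed in these settings. S100A9 passed with brightness (1.12) and within the bright arrays (1.67). S100A12 did not pass with normexp (1.35, adjusted p = 0.251 in limma), without the filter (1.80, adjusted p = 0.0889), in the deposited table (1.79, adjusted p = 0.0511), with slide as a block (1.96, adjusted p = 0.0618), within the dim arrays (1.65), scan day 1 (1.93) or scan day 2 (1.49), or without RFIpl 2, 7 and 8 (1.83). Leaving out an array gave 1.26 to 1.91 for S100A8, which passed without RFIpl 3, 0.996 to 1.39 for S100A9, which passed without RFIplR 6, and 1.62 to 2.05 for S100A12. Of all probes 1.03% passed without RFIpl 3 and 0.343% without RFIplR 6. Over all settings other than leaving out an array, adjusted p lay between 0.000381 and 0.944 for S100A12 in limma. The cause of these changes was not tested.

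The count of 59 probes in RFIneg minus RFIpl became 0 with normexp, when slide or replicate number was the block, on the dim arrays, in either scan day and without RFIpl 2, 7 and 8. It became 2 without the filter, 39 in the deposited table, 297 within the bright arrays, 416 with brightness and slide and 1895 with brightness, and ranged from 1 (without RFIpl 8) to 284 (without RFIpl 3) with an array left out. The count of 85 in RFIplR minus RFIpl became 0 within the dim arrays or either scan day and without RFIpl 2, 7 and 8, 4 with normexp, 25 with slide, 38 without the filter, 258 with scan day, 954 within the bright arrays, 1694 with brightness and slide and 2964 with brightness, and ranged from 22 (without RFIpl 1) to 296 (without RFIpl 3). Normexp moved the median of all probes to -0.19 in RFIneg minus RFIplR and 0.21 in RFIplR minus RFIpl, and leaving out the filter moved the latter to 0.14.

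With the replicate number as a block, S100A12 in RFIplR minus RFIpl had a difference of 1.80 and an adjusted p of 0.134 in limma, and 2 probes passed. Of 24 correlations between the deviations of same-numbered arrays, 12 were over 0.1 (range -0.819 to 0.879). They were positive between arrays of the same brightness class and negative between a dim and a bright array. Whether same-numbered pigs were paired therefore cannot be told from them. Using another probe of each gene was not run because each calgranulin had 1 probe. Within scan day 3 nothing was run because each group had 1 array there.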
